A study of Mus musculus with 30 samples.

Results

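The genes described here are the tumor suppressor p53 (Trp53), 4 genes whose products restrain p53 (Mdm2, Mdm4, Ppm1d and Ccng1) and 5 other p53 targets (Cdkn1a, Sesn2, Bax, Bbc3 and Pmaip1). They are a list of 10 genes chosen by name, out of 14558 genes that have a value in at least 1 of the deposited tables. mRNA level, as FPKM (fragments per kilobase of transcript, scaled to the depth of the library), was given for 8 of them, and mRNA half-life for 5. Mdm2, Mdm4 and Ppm1d had both values. Trp53, Ccng1, Sesn2, Bax and Bbc3 had an FPKM only, and Cdkn1a and Pmaip1 had a half-life only, so their FPKM was not analysed here.

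The values come from mouse spermatogonial stem cell (SSC) lines of mixed C57BL/6 and DBA/2J background, which are cultured undifferentiated spermatogonia derived from testes of postnatal day 7 males and grown on fibroblast feeders. The study concerns NANOS2, an RNA-binding protein needed to maintain these cells, and both lines carry a Nanos2 allele with a V5, Myc, PreScission, His and EGFP tag (TAG) placed at the start of the endogenous coding sequence. Line 4 was Nanos2 TAG/+ and line 5 was Nanos2 TAG/TAG (TAG/+ and TAG/TAG in the following), with no other treatment, and neither line lacked the tagged allele. RNA-seq was performed on 1 library of ribosomal RNA-depleted total RNA per line, and SLAM-seq, in which RNA labeled with 4-thiouridine is followed after the label is removed, on 12 libraries per line, 2 at each of the chase times of 0, 30, 60, 120, 540 and 1440 min. Each genotype was represented by a single line, and the labels give different extraction reagents for the RNA-seq libraries (QIAzol for TAG/+, Trizol for TAG/TAG). The reagent, the line and the genotype cannot be told apart, and no comparison below has a replicate or a p-value.

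p53 is a transcription factor that is kept low in unstressed cells and is stabilized by DNA damage and other stresses. It activates genes that stop the cell cycle, repair DNA or kill the cell, and also genes that switch p53 itself off, which closes a negative feedback loop. Germ cells use p53 in quality control, and p53-dependent death of damaged spermatogonia is well known in the testis. MDM2 is the ubiquitin ligase that directs p53 to degradation, MDM4 (MDMX) is its partner and masks the p53 activation domain, the phosphatase PPM1D (WIP1) removes activating phosphates from p53 and its kinases, and cyclin G1 (Ccng1) brings a phosphatase to MDM2.

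p53 binds DNA as pairs of a decamer, and the promoters of the listed genes were read for it to show where such sequence lies in these genes. The p53 decamer was present in the promoter of 6 of the 9 listed genes that had a promoter sequence in the RefSeq table, namely Trp53, Mdm2, Ppm1d, Ccng1, Cdkn1a and Bax. It was not found in the windows of Mdm4, Sesn2 and Bbc3. Of all 27025 genes in that table, 9.55% held it in at least 1 promoter. Counted by promoter (250 bases before to 50 bases after the start), it was in 6 of 13 promoters of the listed genes and in 8.36% of all 32851. The decamer pattern equals its own reverse complement, so both strands were covered. In the windows printed here, 5′ to 3′ on the strand of the gene, capitals mark the decamer (RefSeq, GRCm38.p6).
Trp53, chr11:69580274-69580303, plus strand: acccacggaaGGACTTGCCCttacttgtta
Mdm2, chr10:117710925-117710954, minus strand: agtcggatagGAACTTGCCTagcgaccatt
Ppm1d, chr11:85311112-85311141, plus strand: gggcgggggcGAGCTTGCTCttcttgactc
Ccng1, chr11:40755452-40755481, minus strand: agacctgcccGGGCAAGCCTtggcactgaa
Cdkn1a, chr17:29090896-29090925, plus strand: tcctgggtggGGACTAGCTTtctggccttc
Cdkn1a, chr17:29090918-29090947, plus strand: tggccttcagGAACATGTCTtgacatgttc
Bax, chr7:45467080-45467109, minus strand: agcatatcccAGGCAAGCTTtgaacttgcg
Cdkn1a was the only listed gene with a pair of exact decamers, separated by 12 bases, within the spacing of at most 13 bases that was searched. The pair was in 1 of its 2 promoters, and the other held no decamer. Only exact matches were counted. The bases that directly follow the second Cdkn1a decamer depart from the pattern at 1 base, so a pair without a spacer was not counted there. Exact pairs with a spacer of 0 to 13 bases were found in 0.0731% of all promoters, that is in 24. The genes were listed as p53 genes, and their share was not tested against that of all genes. The matches describe these windows only, sequence outside them was not searched, and p53 binding was not measured.

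The 3′ UTRs were read because RNA-binding proteins that set mRNA half-life act there. The motif that the study gives for NANOS2 covers AUGAAAU (the form present in Trp53), AUUAAAU (the form present in Mdm4), AUGAAUU (the form present in Mdm2, Ccng1 and Bbc3) and the remaining combination of these letters, AUUAAUU, and it was searched on the sense strand. It occurred once in 6 of the 10 listed genes (Trp53, Mdm2, Mdm4, Ccng1, Bbc3 and Pmaip1) and not in Ppm1d, Cdkn1a, Sesn2 or Bax. Of 5784 transcripts with a half-life and an annotated 3′ UTR, 41.8% held it. A match does not show that NANOS2 binds there. The paper measured NANOS2 binding by cross-linking, and those data were not analysed here. Capitals mark the motif in the RNA windows of 5 of these genes (GENCODE M21, GRCm38, 5′ to 3′).
Trp53, chr11:69591661-69591687, plus strand: ggcaccuacaAUGAAAUcucacccuac
Mdm2, chr10:117689477-117689503, minus strand: uuuuaaaggcAUGAAUUgcaucuggug
Mdm4, chr1:132991232-132991258, minus strand: uaaagcauuuAUUAAAUacuggggcua
Ccng1, chr11:40749100-40749126, minus strand: uaauaacuggAUGAAUUaucacucuga
Bbc3, chr7:16318109-16318135, plus strand: auauacuggaAUGAAUUuucuguacau

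AU-rich elements, which mark many short-lived mRNAs of growth and stress genes, were counted in the same 3′ UTRs as the pentamer AUUUA. It was present in 8 of the 10 listed genes against 72.5% of the 5784 transcripts, and absent from Bax (165 bases of 3′ UTR) and Bbc3 (971 bases). Mdm2 had 8 pentamers in 1335 bases, or 5.99 per kilobase, which was higher than 96.4% of the transcripts, whose median was 1.43 per kilobase. Mdm4 had 11 in a 3′ UTR of 5436 bases (2.02 per kilobase), longer than 96.4% of all. Ccng1 had 8 in 2316 bases, Ppm1d 3 in 873 bases, Cdkn1a 4 in 1334 bases, Pmaip1 4 in 2187 bases, Sesn2 1 in 1684 bases and Trp53 1 in 441 bases. Mdm2 was the only listed gene with the 9-base element UUAUUUAUU, which contains the pentamer and which 8.82% of the transcripts held. It is shown in capitals because it lies near the end of the Mdm2 3′ UTR, starting at base 1277 of 1335.
Mdm2, chr10:117688915-117688943, minus strand: ggcauugaugUUAUUUAUUugcaaauaaa

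The RNA-seq table held 13904 genes with a median of 10.2 FPKM in the TAG/+ line and 10.5 FPKM in the TAG/TAG line, scaled to 10908790 and 11738620 reads. Whole reads were recovered from FPKM, and the intervals given below are 95% exact Poisson intervals of those reads for a level and exact binomial intervals for a ratio, which cover counting error only. Of 12 spermatogonial markers, 11 had an FPKM and their sum was 728 FPKM in the TAG/+ line and 974 FPKM in the TAG/TAG line. Of the 11, 5 were higher in the TAG/TAG line, and the median log2 difference was -0.071. The larger sum rested on Etv5 (46.0 and 178 FPKM), Ret (73.2 and 181 FPKM) and Gfra1 (56.2 and 111 FPKM). Nanos2 itself stood at 27.5 and 23.8 FPKM. Markers of the fibroblast feeders were detected at 12 of 12, with none at 0 and sums of 416 and 591 FPKM. In the TAG/TAG line 11 of 12 were higher, 5 of them by more than 2-fold. Whether these genes, Thy1 (15.7 and 35.2 FPKM) among them, are expressed in feeders only was not tested. The sum of 7 of 8 markers of differentiating germ cells was 264 FPKM and 191 FPKM, and that of 3 of 6 Sertoli and Leydig cell markers was 9.33 and 25.3 FPKM, with Wt1 at 2.51 and 19.6 FPKM and Sox9 at 2.19 and 4.49 FPKM, whereas Star went the other way, at 4.62 and 1.20 FPKM. None of 3 blood markers was listed. The part of these cell types in the differences described next was not tested, and in such bulk libraries fewer cells of a type and less RNA per cell cannot be told apart.

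In both lines, Trp53 had the highest FPKM of the 8 listed genes with such a value. Trp53 (chr11:69580359-69591873, plus strand) had 122 FPKM in the TAG/+ line (117 to 127, 2423 reads) and 135 FPKM in the TAG/TAG line (130 to 140, 2875 reads). This placed it above 92.5% and 93.4% of all genes. The level was 1.10-fold higher in the TAG/TAG line, a log2 difference of 0.14 (0.063 to 0.22), near the middle of all genes, whose median log2 difference was 0.0089 with quartiles at -0.44 and 0.51. A processed copy, Trp53-ps, is among the genes that share 50-base stretches with Trp53, at 3.95% of its transcript positions in all.

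The feedback inhibitors fell into a group of 3 that were lower in the TAG/TAG line by nearly the same factor, and Ccng1, which was higher. Mdm2 (chr10:117688875-117710758, minus strand) had 53.5 FPKM in the TAG/+ line (50.2 to 56.9, 983 reads) and 35.8 FPKM in the TAG/TAG line (33.2 to 38.5, 708 reads). The intervals did not overlap, and the level was 1.49-fold higher in the TAG/+ line (1.36 to 1.65), with a log2 difference of -0.58. Mdm4 (chr1:132959484-133030561, minus strand) had 79.3 FPKM in the TAG/+ line (75.7 to 82.9, 1866 reads) and 54.7 FPKM in the TAG/TAG line (51.9 to 57.7, 1386 reads). Its ratio was 1.45-fold (1.35 to 1.55), and Mdm4 shares 7.31% of its 50-base stretches with other genes, among them Mdm4-ps. Ppm1d (chr11:85311244-85347066, plus strand) had 108 FPKM in the TAG/+ line (104 to 113, 2164 reads) and 75.2 FPKM in the TAG/TAG line (71.6 to 79.0, 1619 reads). Its ratio was 1.44-fold (1.35 to 1.53), so the 3 ratios had overlapping intervals. None of the 3 passed 2-fold, and 19.7% to 21.7% of all genes had a lower log2 difference than these genes.

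Ccng1 went the other way and was the only listed gene past 2-fold. Ccng1 (chr11:40748552-40755311, minus strand) had 22.8 FPKM in the TAG/+ line (20.9 to 24.8, 536 reads) and 46.8 FPKM in the TAG/TAG line (44.2 to 49.5, 1185 reads). The ratio was 2.05-fold (1.85 to 2.28), with a log2 difference of 1.04 (0.89 to 1.19), so the interval included 2-fold. It shared no 50-base stretch with another gene. The count of 1 of 8 listed genes past 2-fold stood beside 23.1% of all genes in either direction, 13.5% higher and 9.59% lower in the TAG/TAG line. Of the 12 fibroblast markers, 11 were higher in the TAG/TAG line, 5 of them past 2-fold. Those 5 were Pdgfrb, Col6a1, Thy1, Lox and Sparc. Among them, Sparc had 73.9 and 158 FPKM in the TAG/+ and TAG/TAG lines, Lox 5.57 and 12.1 FPKM, and Pdgfrb 0.660 and 6.75 FPKM. The most abundant marker, Fn1, had 254 and 280 FPKM, and Col3a1 went the other way, at 7.10 and 6.79 FPKM. Higher values past 2-fold were not confined to fibroblast markers. Of 11 spermatogonial markers, 3 (Etv5, Ret and Utf1) were higher past 2-fold and none lower, while 5 of 11 were higher by any amount. Of 3 Sertoli and Leydig cell markers, 2 (Wt1 and Sox9) were higher and 1 (Star) was lower past 2-fold. The part of fibroblasts or of any other cell type in the Ccng1 value was not tested.

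**Figure D1:**
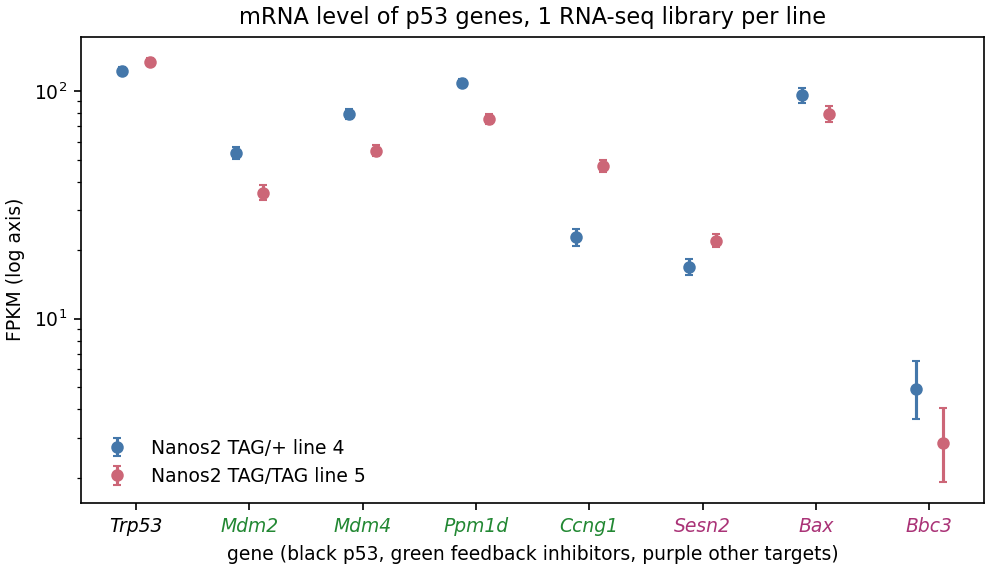
mRNA level of the 8 listed genes with an FPKM (vertical log axis, FPKM) in the TAG/+ library (blue) and the TAG/TAG library (red), with p53 named in black, feedback inhibitors in green and other targets in purple. Points are the single library of each line and bars are 95% exact Poisson intervals of its reads, and Mdm2, Mdm4 and Ppm1d sit lower in red while Ccng1 sits at 22.8 in blue and 46.8 in red.

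The other targets with an FPKM differed between the lines in both directions. Sesn2, which encodes the stress protein sestrin 2 that restrains mTORC1 signaling, lies at chr4:132492032-132510501 on the minus strand. It had 16.9 FPKM in the TAG/+ line (15.6 to 18.3, 641 reads) and 22.0 FPKM in the TAG/TAG line (20.6 to 23.5, 896 reads), a 1.30-fold higher level (1.17 to 1.44). Bax (chr7:45461697-45466898, minus strand), which permeabilizes the outer mitochondrial membrane, had 95.7 FPKM in the TAG/+ line (88.6 to 103, 675 reads) and 79.3 FPKM in the TAG/TAG line (73.1 to 85.9, 602 reads). The Bax intervals were apart, and the ratio was 1.21-fold higher in the TAG/+ line (1.08 to 1.35), although 8.51% of its 50-base stretches also occur in Gm45808.

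Bbc3 was the lowest and least precise of the 8. Bbc3 (chr7:16308393-16318205, plus strand) encodes PUMA, which binds the survival proteins of the BCL-2 family and so unleashes BAX. It had 4.91 FPKM in the TAG/+ line (3.62 to 6.51, 48 reads) and 2.85 FPKM in the TAG/TAG line (1.92 to 4.07, 30 reads). Here the intervals of the levels overlapped, and the ratio of 1.72-fold in favor of the TAG/+ line had an interval from 1.07 to 2.81. In all, 5 of the 8 listed genes were lower in the TAG/TAG line, beside 49.5% of all genes, and 3 were higher. Past 1.5-fold there were 2 listed genes, Ccng1 and Bbc3, beside 42.2% of all genes (22.8% higher and 19.4% lower). Their log2 differences are therefore inside the range that many other genes cover between these libraries.

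**Figure D2:**
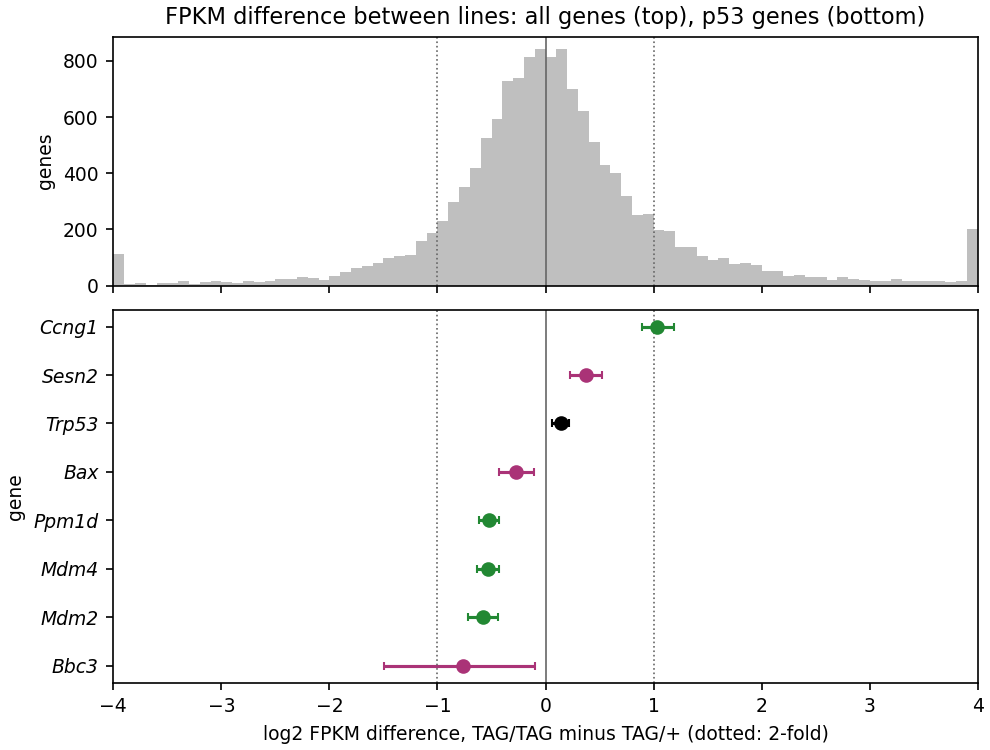
The log2 difference in FPKM (TAG/TAG minus TAG/+, pseudocount 0.1) is shown for all 13904 genes as a histogram (top, genes beyond 4 in either direction are counted in the end bins) and for the 8 listed genes as points (bottom) with 95% exact binomial intervals of the read ratio. Black is p53, green are feedback inhibitors, purple are other targets, dotted lines mark 2-fold, and Mdm2, Mdm4 and Ppm1d share a place at -0.58 to -0.52 while Ccng1 stands at 1.04.

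Within a library, FPKM sets levels of different genes beside each other per length. The length that gave whole reads was the mean over a gene's annotated transcripts, expressed or not. The order of genes therefore depends on the annotation, and the intervals leave this out. In the TAG/+ line the order of FPKM was Trp53, Ppm1d, Bax, Mdm4, Mdm2, Ccng1, Sesn2 and Bbc3. Every pair of neighbors had intervals of counting error that were apart. In the TAG/TAG line the order was Trp53, Bax, Ppm1d, Mdm4, Ccng1, Mdm2, Sesn2 and Bbc3. Only the neighbors Bax and Ppm1d had overlapping intervals of counting error. Thus the FPKM of Ccng1 passed that of Mdm2 between the lines. The level of Ccng1 over that of Mdm2 was 0.426 (0.383 to 0.473) in the TAG/+ line and 1.31 (1.19 to 1.44) in the TAG/TAG line.

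The ratio of each feedback inhibitor to Trp53 in the same library shows how these levels stood to p53 mRNA. Its size depends on the transcript lengths used, which were the same for both lines. The FPKM of Mdm2 was 0.438 of that of Trp53 (0.406 to 0.472) in the TAG/+ line and 0.266 (0.244 to 0.289) in the TAG/TAG line. For Mdm4 the ratio to Trp53 was 0.649 (0.611 to 0.690) and 0.406 (0.381 to 0.433), and for Ppm1d it was 0.886 (0.836 to 0.939) and 0.559 (0.525 to 0.594). All 3 ratios were lower in the TAG/TAG line, with intervals apart. The Ccng1 ratio to Trp53 was 0.186 (0.169 to 0.205) and 0.347 (0.324 to 0.372), higher in the TAG/TAG line. Among the other targets, Bax over Trp53 was 0.783 and 0.589 and Sesn2 over Trp53 was 0.138 and 0.163, also with intervals apart, whereas Bbc3 over Trp53 was 0.0402 (0.0296 to 0.0535) and 0.0212 (0.0143 to 0.0303), with intervals that overlapped slightly.

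The feedback inhibitors Mdm2, Mdm4 and Ppm1d kept similar ratios to each other. Mdm4 over Mdm2 was 1.48 (1.37 to 1.60) in the TAG/+ line and 1.53 (1.40 to 1.68) in the TAG/TAG line. Ppm1d over Mdm2 was 2.02 (1.88 to 2.18) and 2.10 (1.92 to 2.30), and Ppm1d over Mdm4 was 1.37 (1.28 to 1.45) and 1.38 (1.28 to 1.48). A difference between the lines in these 3 ratios was thus not detectable at this depth. The ratio of Bax to Bbc3 was 19.5 (14.5 to 26.7) and 27.8 (19.3 to 41.6), which the few Bbc3 reads also left overlapping.

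mRNA half-life was given for 3 feedback inhibitors and 2 other targets, and the 5 transcripts had nearly the same half-life in both lines. Mdm2 mRNA had a half-life of 197 min in the TAG/+ line and 182 min in the TAG/TAG line. Mdm4 mRNA had 213 min and 202 min, and Ppm1d mRNA had 182 min and 185 min, respectively. The largest of these log2 differences was -0.12, for Mdm2, and the direction was not shared, with Mdm2 and Mdm4 shorter and Ppm1d longer in the TAG/TAG line. The 3 mRNAs whose levels were lower by 1.44-fold to 1.49-fold thus showed small differences in half-life, the largest of which was -15.2 min, for Mdm2.

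Cdkn1a (chr17:29090976-29100727, plus strand), which encodes the cyclin-dependent kinase inhibitor p21, had a half-life of 177 min in the TAG/+ line and 176 min in the TAG/TAG line. Pmaip1 encodes NOXA, a BH3-only protein that neutralizes the survival protein MCL1. Its mRNA was by far the least stable of the 5, with 88.4 min in the TAG/+ line and 93.8 min in the TAG/TAG line, and only 4.08% and 7.13% of all transcripts had a shorter half-life. None of the 5 passed 1.5-fold, beside 20.7% of 5806 transcripts in either direction.

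All 5 half-lives were below the median of all transcripts in both lines, which was 224 min in the TAG/+ line and 226 min in the TAG/TAG line, and 39.8% of all transcripts were below it in both. Mdm4 was nearest to the median, above 45.5% and 40.5% of all transcripts. The absolute log2 difference of all transcripts had a median of 0.27, and the 5 listed genes were all under it. The share of transcripts that moved less was 24.8% for Mdm2, 18.4% for Pmaip1, 17.2% for Mdm4, 5.17% for Ppm1d and 3.62% for Cdkn1a. The deposited half-lives carry no fitting error, so their own precision is not known.

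**Figure D3:**
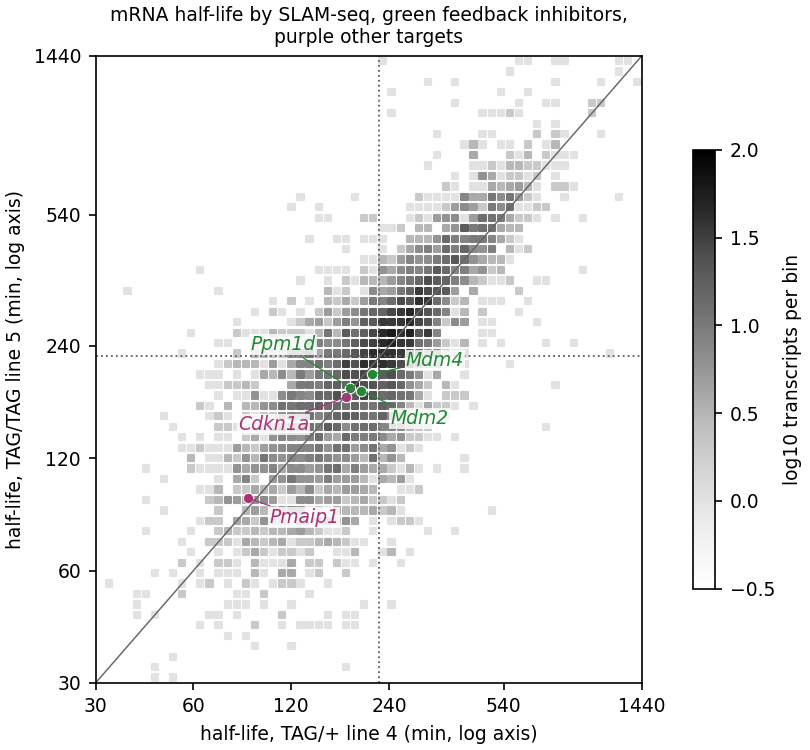
mRNA half-life in the TAG/+ line (horizontal) and the TAG/TAG line (vertical), both in min on log axes, with gray squares shaded by the number of transcripts in each bin, 42 transcripts outside the axes not drawn, dotted lines at the medians and a diagonal of equal half-life. The 5 listed genes (green feedback inhibitors, purple other targets) lie close to the diagonal, below both medians, with Pmaip1 at 88.4 and 93.8 min.

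Feedback inhibitors and other targets were then set side by side as groups. The 4 feedback inhibitors had a median of 66.4 FPKM (22.8 to 108) in the TAG/+ line and 50.7 FPKM (35.8 to 75.2) in the TAG/TAG line. The 3 other targets had medians of 16.9 FPKM (4.91 to 95.7) and 22.0 FPKM (2.85 to 79.3), so the ranges of the groups overlapped in both lines. These levels, too, depend on the transcript lengths used. The median log2 difference between the lines was -0.53 for the feedback inhibitors and -0.27 for the other targets. Their means were -0.15 and -0.22, so the order of the groups turned with the choice of median or mean, because Ccng1 stood apart from the other feedback inhibitors. Median half-lives were 197 and 185 min for 3 feedback inhibitors and 133 and 135 min for the other targets Cdkn1a and Pmaip1. Cdkn1a and Pmaip1 both lay below each of the 3 feedback inhibitors in both lines, Cdkn1a at 177 and 176 min and Pmaip1 at 88.4 and 93.8 min. Cdkn1a was only slightly below the lowest feedback inhibitor, Ppm1d at 182 min in the TAG/+ line and Mdm2 at 182 min in the TAG/TAG line. The gap between the groups thus rested largely on Pmaip1, and the values carry no error.

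Of 14 upstream regulators (kinases, acetyltransferases and MDM2 inhibitors among others) 12 had an FPKM, with levels from 9.31 FPKM for the checkpoint kinase gene Chek1 to 328 FPKM for the acetyltransferase gene Crebbp, both in the TAG/+ line. None was higher and 1 was lower past 2-fold in the TAG/TAG line, beside 13.5% and 9.59% of all genes, and the median log2 difference was -0.28. That gene was Rpl5, a ribosomal protein that can bind MDM2, at 27.0 and 13.3 FPKM, and 48.9% of its 50-base stretches occur in other genes, so its level is uncertain. Of 9 half-lives, Prkdc (the DNA-dependent protein kinase) was longer, at 236 and 411 min, and Kat5 (the acetyltransferase TIP60) was shorter, at 209 and 134 min, past 1.5-fold, beside 20.7% of all transcripts in either direction.

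Of the other ubiquitin ligases of p53, listed under 8 symbols, 6 had an FPKM and 1 was past 2-fold, beside 23.1% of all genes in either direction. Cop1, which also stands in the list under its older symbol Rfwd2, had 12.7 FPKM (252 reads) in the TAG/+ line and 4.79 FPKM (102 reads) in the TAG/TAG line, with 11.2% of its 50-base stretches shared with other genes. Huwe1 was the highest, at 755 and 746 FPKM, and the median log2 difference of the list was 0.064. None of the 6 half-lives passed 1.5-fold, beside 20.7% of all transcripts, with Cop1 at 193 and 239 min. Of the p53 family, Trp73 was listed, at 1.23 FPKM (33 reads) and 0.452 FPKM (13 reads). It was thus lower past 2-fold in the TAG/TAG line, on few reads, beside 9.59% of all genes.

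Further p53 targets were listed in both measurements. Of 30 further targets 27 had an FPKM, with a median log2 difference of -0.084, and their levels ran from 0.657 FPKM for Perp to 124 FPKM for Rps27l. Phlda3, an AKT inhibitor, was higher at 6.22 and 12.9 FPKM in the TAG/+ and TAG/TAG lines. Psrc1, a spindle protein, was likewise higher at 17.8 and 36.0 FPKM. Rps27l, a ribosomal protein paralog, was lower at 124 and 52.0 FPKM, with 11.2% of its 50-base stretches shared with other genes. The count of 2 higher and 1 lower of 27 stood beside 13.5% and 9.59% of all genes. Both higher genes were just past 2-fold and no longer passed it with a pseudocount of 1, whereas Rps27l still did. Plk3, at 7.29 and 14.6 FPKM, was 2.01-fold higher by FPKM and just under 2-fold with the pseudocount of 0.1, and was not counted.

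Of 14 half-lives of these further targets, 6 were longer and 1 was shorter past 1.5-fold in the TAG/TAG line, beside 583 longer and 621 shorter of all 5806 transcripts. The longer ones were the growth arrest genes Gadd45a (82.3 and 149 min) and Btg2 (106 and 196 min) and the kinase gene Plk3 (113 and 207 min). Also longer were the death receptor gene Tnfrsf10b (124 and 226 min), Pml (191 and 323 min) and Trp53i11 (164 and 289 min). Zmat3, an RNA-binding zinc finger gene, was the shorter one at 189 and 107 min. Gadd45a, Btg2, Plk3 and Tnfrsf10b were short-lived in the TAG/+ line, at 82.3 to 124 min against a median of 224 min. The counts over all transcripts are not matched for half-life. The share of longer half-lives among transcripts equally short-lived in the TAG/+ line was not computed. The median log2 difference in half-life was 0.25 over the 14, 0.037 over all transcripts, and between -0.12 and 0.085 for each of the 5 listed genes. These comparisons of lists describe 1 fitted value per line and were not tested.

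**Figure D4:**
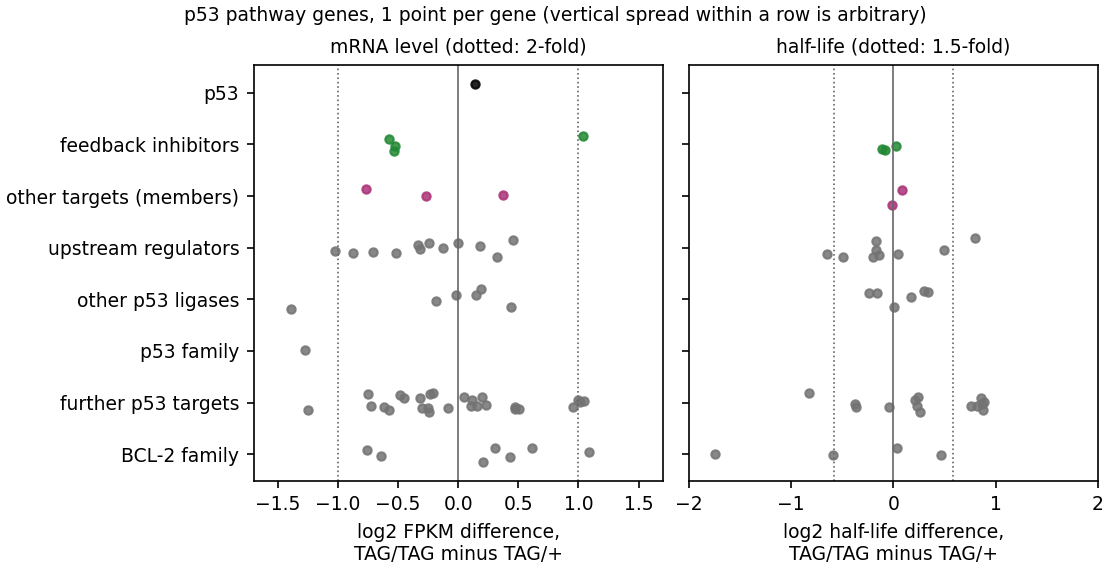
The log2 difference between the lines (TAG/TAG minus TAG/+) in FPKM (left) and in half-life (right), with 1 point per gene for p53 (black), feedback inhibitors (green), other targets (purple) and the further pathway lists (gray), and dotted lines at 2-fold on the left and 1.5-fold on the right. Listed genes with a half-life lie between -0.12 and 0.085. Of the further p53 targets, 6 lie past the right dotted line and 1 past the left one, in a comparison not matched for half-life.

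The genes whose pattern was nearest to Mdm2 were sought among 5152 genes with both measurements, by Euclidean distance over 4 values, the log2 FPKM and the log2 half-life in each line. The nearest was Pdk1 (distance 0.22), with 47.6 and 36.5 FPKM and half-lives of 179 and 176 min. Zfp444 followed (0.24), with 56.9 and 39.3 FPKM and 216 and 197 min, and then Cdc23 (0.28), with 47.7 and 41.3 FPKM and 184 and 183 min. The same search could not be made for Trp53, whose half-life was not analysed here.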

How the data were processed

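RNA-seq of 1 library per line and SLAM-seq of 12 libraries per line were used. CRAC libraries listed in the labels were not analysed here. The authors deposited FPKM values, and the submitters' processing notes name kallisto and DESeq2 without a role. The RNA-seq genome build and annotation are not given in the sources used here. The column names were read as tagged/tagged and tagged/plus. This assignment rests on the names alone. The authors also deposited half-lives in min, fitted with SlamDunk conversion rates normalized to the start of the chase and first-order decay, with technical replicates collapsed and no error given. The labels describe feeder depletion, whereas the methods describe sorted SSCs.

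FPKM multiplied by the mean GENCODE M21 transcript length and by 1 depth per library gave whole reads (tolerance 0.02) for 100% of 13867 genes with 1 annotated length. The recovered reads summed to 10931439 (Nanos2 TAG/+) and 11627842 (Nanos2 TAG/TAG), near but not equal to the scaling depths, and they may be rounded estimates. The step was tested on data simulated with the same lengths and 1 depth per library (100% of reads recovered). That checks the calculation only, not whether the deposited values used these lengths or hold counted reads. Log2 differences used a pseudocount of 0.1. Past 2-fold in FPKM and past 1.5-fold in half-life were counted, without a test. All listed genes were named, and of the other lists those past either fold with at least 1 FPKM in 1 line, plus the highest and lowest levels. Members and lists were chosen with earlier results of these data known. The promoter motif, the 9-base element and the 50-base comparison (annotated transcripts, 15 genes) were added after values were seen. 3′ UTRs follow the stop codon of the APPRIS principal transcript in GENCODE M21. Python 3.11.15, numpy 2.4.6, pandas 2.3.3, scipy 1.17.1 and matplotlib 3.10.9 were used.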

Additional observations from a re-analysis of the deposited data

How the results depend on the processing

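With 1 library per line no replicate could be left out, and no paired analysis was possible because each line has 1 RNA-seq library and 1 fitted half-life per transcript. The log2 FPKM differences of the 8 listed genes kept their sign in all 24 recalculations (pseudocount 1, centring on the median, trimmed-mean scaling), where centring removed a median of -0.016. This outcome was to be foreseen, because a pseudocount cannot change a sign. Trimmed-mean scaling gave a median shift of -0.00075, and the smallest difference was 0.14, for Trp53. Whether the differences would hold in other libraries was not tested. Listed genes past 2-fold were 1, and 2 past 1.5-fold. The feedback inhibitors minus the other targets differed by -0.26 in median log2 difference, by -0.59 with Ccng1 among the other targets, and by 0.069, the opposite sign, with means. Their gap in log2 level, which depends on the transcript lengths used, was 1.49, and 1.20 without Mdm4. The gap in half-life, which rested largely on Pmaip1, was 55.9 min with medians and 59.9 min with means. Other pathway genes past 2-fold were 7, beside 23.1% of all genes. They came from lists with 12 (upstream), 6 (ligases), 1 (p53 family), 27 (further targets) and 7 (BCL-2 family) genes with an FPKM. With pseudocount 1, which shrinks the fold of low genes, they were 2 (Cop1 and Rps27l). The share of all genes at that pseudocount was not computed. Limiting half-lives to 540 min, centring them or counting past a lower fold left 0 listed genes past the fold. Bbc3 rests on 48 and 30 reads, so only large differences are detectable there.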

Other observations

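Of 13 BCL-2 family genes other than Bax, Bbc3 and Pmaip1, 7 had an FPKM, and 5 of these were higher in the TAG/TAG line, with a median log2 difference of 0.31. Of all genes, 49.5% were lower in that line. Bok, a BAX-like effector, was the only one past 2-fold, at 2.52 FPKM in the TAG/+ line and 5.45 FPKM in the TAG/TAG line. Past 2-fold higher stood 13.5% of all genes, and Bok did not pass with a pseudocount of 1. Bcl2l1, which encodes the survival protein BCL-XL, was the highest, at 71.8 and 82.8 FPKM, with a half-life of 243 and 162 min, shorter past 1.5-fold. Bcl2l2 had 3.41 and 1.97 FPKM, the lowest of the list in the TAG/TAG line, whereas Bok was the lowest in the TAG/+ line. Bad, a BH3-only gene, had a half-life of 273 min and 81.2 min, the largest fold among the 4 half-lives of this family. The 2 of 4 past 1.5-fold stood beside 20.7% of all transcripts. Mcl1, the survival protein that NOXA binds, had 8.93 FPKM in the TAG/TAG line, 1.57-fold more in the TAG/+ line, and half-lives of 88.7 and 123 min. In the TAG/+ line its half-life stood beside 88.4 min for Pmaip1. Bid stood at 179 and 184 min. None of these values has a replicate, and the differences were not tested.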
